A study of Mus musculus with 9 samples.

Results

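Proteasome genes were followed in HL-1, a cultured line derived from mouse atrial heart muscle, after 24 h with 5 µM ivermectin, with 10 µM importazole or with the vehicle, 0.1% DMSO. Members were chosen by name, as every symbol that begins with Psm, a letter from a to g and a digit, without a hyphen. This gave 50 of the 25175 symbols in the files, and 48 of them reached 1 FPKM (a level scaled for transcript length and for the fragments mapped in each library) in at least 3 of the 9 libraries. The 2 others, Psma8 of the testis proteasome and Psmb11 of the thymus proteasome, stayed at or below 0.0800 FPKM in every library. The 48 comprised 7 core alpha, 7 core beta, 3 inducible catalytic, 9 cap base, 8 cap lid, 5 activator and 8 assembly or inhibitor genes, and Psmc3ip. Psmc3ip, a factor of meiotic recombination, met the naming rule but is not itself a proteasome subunit.

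Poly(A) RNA of 3 libraries per group was sequenced. Ivermectin is an antiparasitic drug that also inhibits importin α/β, the receptor pair of nuclear import, and importazole is an inhibitor of importin-β. DMSO is named in the labels for the vehicle group alone. Nothing there says that libraries came from separate cultures, so p-values measure the spread between these libraries, which may be technical. All RNA came from a single cell line.

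The proteasome is the barrel-shaped protease that breaks down proteins tagged with ubiquitin. Its core is built from rings of alpha and beta subunits, and a few of the beta subunits cut peptide bonds. A cap, made of a base with ATPases and a lid with a ubiquitin-removing enzyme, recognises, unfolds and feeds in the substrate. Interferon replaces the 3 cutting subunits with inducible ones to form the immunoproteasome, other activators can take the place of the cap, and dedicated chaperones guide assembly. When proteasomes are inhibited, the transcription factor NFE2L1 raises transcription of most subunit genes together, and in heart muscle the system removes damaged contractile proteins.

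The libraries agreed closely, with Pearson correlations of log2(FPKM + 1) across the 11337 tested genes of 0.9841 to 0.9918 within groups and 0.9797 to 0.9902 between groups (across genes, which are not independent replicates). The values are FPKM and the number of reads per library is unknown. One abundant transcript, Yam1, was listed at 0 in ivermectin 3 and vehicle 2. In the other 7 libraries it took 5.86% to 10.43% of the FPKM total. Its absence from a library can raise all other values there. The median log2(FPKM + 1) of tested genes was 3.5038 in ivermectin 3, 3.4233 in vehicle 2 and 3.4437 to 3.5291 in the others. The 7 heart muscle markers (Actc1, Tnnt2, Myh6, Nppa, Ryr2, Atp2a2 and Myl7) summed to 5144 to 5570 FPKM with ivermectin, 5715 to 6121 with importazole and 6178 to 6905 with vehicle. By limma, 3 of these 7 fell with ivermectin, and with importazole 2 fell and 1 rose. Of the leukocyte markers, Ptprc, Cd3e and Lyz2 were at or below 0.220 FPKM in every library. Cd68, a macrophage marker, ran from 0.827 to 2.18 FPKM with ivermectin, 0.982 to 1.68 with importazole and 0.745 to 1.5003 with vehicle. The fibroblast markers Col1a1 and Ddr2 summed to 35.9 to 38.0 FPKM with ivermectin, 33.4 to 36.3 with importazole and 23.0 to 25.8 with vehicle, and Ddr2 rose with both compounds. Nearly all of that sum was Ddr2, as Col1a1 ran from 0.309 to 1.24 FPKM over the 9 libraries. The endothelial markers Pecam1 and Kdr summed to 7.89 to 7.99 FPKM with ivermectin, 9.005 to 9.21 with importazole and 8.93 to 9.79 with vehicle. Pecam1 alone ran from 0.695 to 0.839 FPKM with ivermectin, 0.510 to 0.687 with importazole and 0.840 to 1.28 with vehicle. Kdr averaged 7.18, 8.49 and 8.235 FPKM in the same order. The part of any of these markers in the values below was not tested. In bulk RNA, fewer cells and less RNA per cell cannot be told apart.

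Group means of the 48 genes ran from 5.68 FPKM (Psmb9 with importazole) to 229.5 FPKM (Psma7 with ivermectin), in a nearly fixed order. Together the 48 genes made up 0.818% to 0.943% of summed FPKM with ivermectin, 0.822% to 0.854% with importazole and 0.823% to 0.939% with vehicle. The 2 highest shares, 0.943% in ivermectin 3 and 0.939% in vehicle 2, belonged to the libraries that list Yam1 at 0. With Yam1 left out of the sums the shares were 0.906% to 0.943% with ivermectin, 0.873% to 0.915% with importazole and 0.904% to 0.939% with vehicle.

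Levels differed more between subunits than between treatments. In the core, whose subunits are present in equal numbers in each particle, alpha transcripts ran in vehicle cells from 35.9 FPKM (Psma5) to 223 FPKM (Psma7), a 6.20-fold range. The beta transcripts of the constitutive core lay closer together, from 95.5 FPKM (Psmb2) to 215 FPKM (Psmb3). The cap base ran from 47.6 FPKM for Psmd1, a scaffold of the base, to 162 FPKM for the ATPase Psmc3. The lid ran from 34.3 FPKM for Psmd14, the enzyme that removes ubiquitin chains, to 106 FPKM for Psmd7, its partner subunit. Assembly and inhibitor genes were lower, from 6.45 FPKM for the base chaperone Psmd10 to 49.97 FPKM for Psmf1, an inhibitor of the core in vitro.

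The order of the 48 genes by group mean was kept between groups. Psma7, Psmb3 and Psmb6 ranked 1, 2 and 3 in each of the groups, and no gene moved by more than 4 ranks. Over all 9 libraries the highest value of a gene was 1.10 (Psmd13) to 1.68 (Psmb9) times its lowest, with a median of 1.24, and 43 of the 48 genes stayed under 1.5. The coefficient of variation between libraries of 1 group had a median over the 48 genes of 8.61% with ivermectin, 4.47% with importazole and 5.07% with vehicle. Ranks, ranges and variation were not worked out for the other genes tested. Whether they are particular to proteasome genes was therefore not tested.

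**Figure D1:**
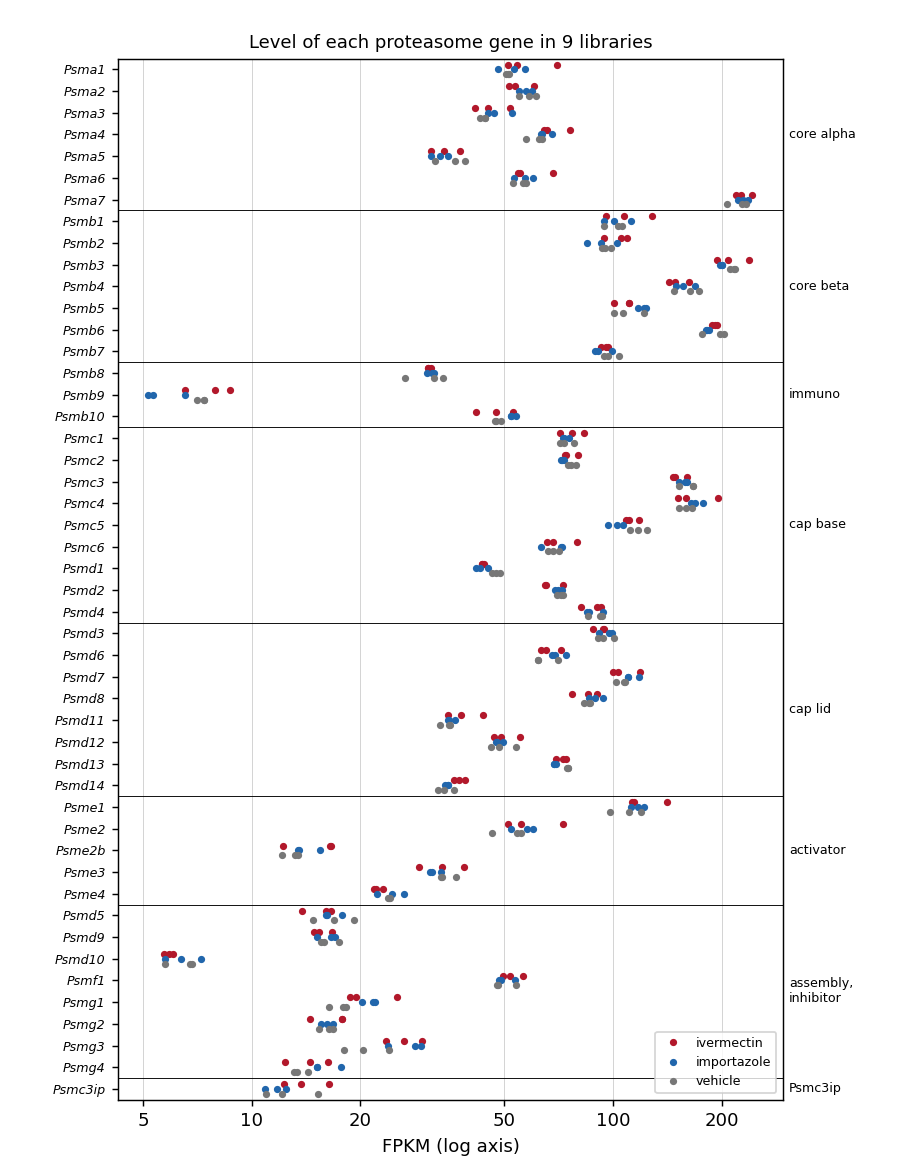
Level of each of the 48 proteasome genes in FPKM (log axis), with 1 point per library and 3 libraries each of ivermectin (red), importazole (blue) and vehicle (grey), grouped by role. The spread between genes, from about 6.45 FPKM for Psmd10 to 223 FPKM for Psma7 in vehicle cells, is far wider than the spread of any gene across libraries, which is widest for Psmb9 at 1.68-fold.

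Ivermectin was compared with vehicle to ask whether the proteasome genes differed after the importin α/β inhibitor. None of the 48 passed the test, where 1.79% of the 11337 genes tested were called higher, 2.52% lower and 4.31% in either direction (limma on log2(FPKM + 1), Benjamini-Hochberg adjusted p under 0.05 over all genes). At an unadjusted p under 0.05, limma had 2 members higher and 0 lower, beside 10.5% and 10.3% of all genes (20.7% in either direction). The count of higher members ran from 0 without ivermectin 3 to 7 without ivermectin 1, and was 6 with quantile normalization. Beside these, 869, 1351 and 1179 of the 11337 genes were higher, where the fit above had 1185. The log2 changes ran from -0.13 (Psmd5) to 0.34 (Psmg3), 26 of them positive and 22 negative. Their median was 0.022, against 0.014 over all genes tested, and without ivermectin 3 it was -0.023, against -0.0001. The 95% interval of the change lay within ±0.5 log2 units for 47 of the 48 members and reached 0.60 for Psmg3.

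Importazole was compared with vehicle to ask the same of the importin-β inhibitor. Again 0 of 48 passed limma's test, with 1.69% of all genes called higher, 0.565% lower and 2.26% in either direction. At an unadjusted p under 0.05, limma had 2 members higher (Psmg1 and Psmg3) and 4 lower (Psmb9, Psmc5, Psmd1 and Psmd13), beside 11.3% and 4.48% of all genes (15.8% in either direction). The lower members numbered 7 with quantile normalization or median-of-ratios scaling, beside 903 and 875 of the 11337 genes, where the fit above had 508. They numbered 1 without importazole 2 or without importazole 3, beside 484 and 398 genes. Changes ran from -0.31 (Psmb9) to 0.37 (Psmg3), 26 positive and 22 negative, with a median of 0.011 against 0.041 over all genes. The median turned to -0.034 with quantile normalization, -0.036 with median-of-ratios scaling and -0.034 with rescaling without Yam1. Under these scalings the median over all genes moved too, to -0.0045, -0.0011 and 0.0014. Without vehicle 3 the member median was -0.014 and without importazole 1 it was -0.0085, against 0.030 and 0.0435 over all genes. The 95% intervals of 46 members lay within ±0.5, the exceptions being Psmb9, whose interval reached -0.56, and Psmg3, whose interval reached 0.63.

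Ivermectin and importazole were then compared directly. None of the 48 differed by limma's test, against 0.714% of all genes higher with ivermectin, 2.71% lower and 3.42% in either direction. At an unadjusted p under 0.05, limma had 1 member higher with ivermectin (Psmb9) and 1 lower (Psmb5), beside 6.13% and 12.8% of all genes (19% in either direction). These counts moved with the scaling, as did those of all genes. With quantile normalization 10 members were higher and 0 lower, beside 1127 and 1106 of the 11337 genes, where the fit above had 695 and 1455. There were 6 higher and 1 lower with median-of-ratios scaling (beside 1014 and 1151 genes) or with rescaling without Yam1 (beside 955 and 1148 genes). Differences ran from -0.17 (Psmb5) to 0.38 (Psmb9). Their median was 0.035 against -0.026 over all genes, and -0.033 against -0.043 without ivermectin 3. Under other scalings it was higher, at 0.091 with quantile normalization, 0.071 with median-of-ratios scaling and 0.066 with rescaling without Yam1, against 0.0075, 0.0057 and 0.0007 over all genes. The intervals of 46 members lay within ±0.5, and those of Psmb9 and Psmc3ip reached 0.62 and 0.52. Ivermectin is a macrocyclic lactone and importazole a quinazoline, and since their doses differed the values hold only for the doses used.

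**Figure D2:**
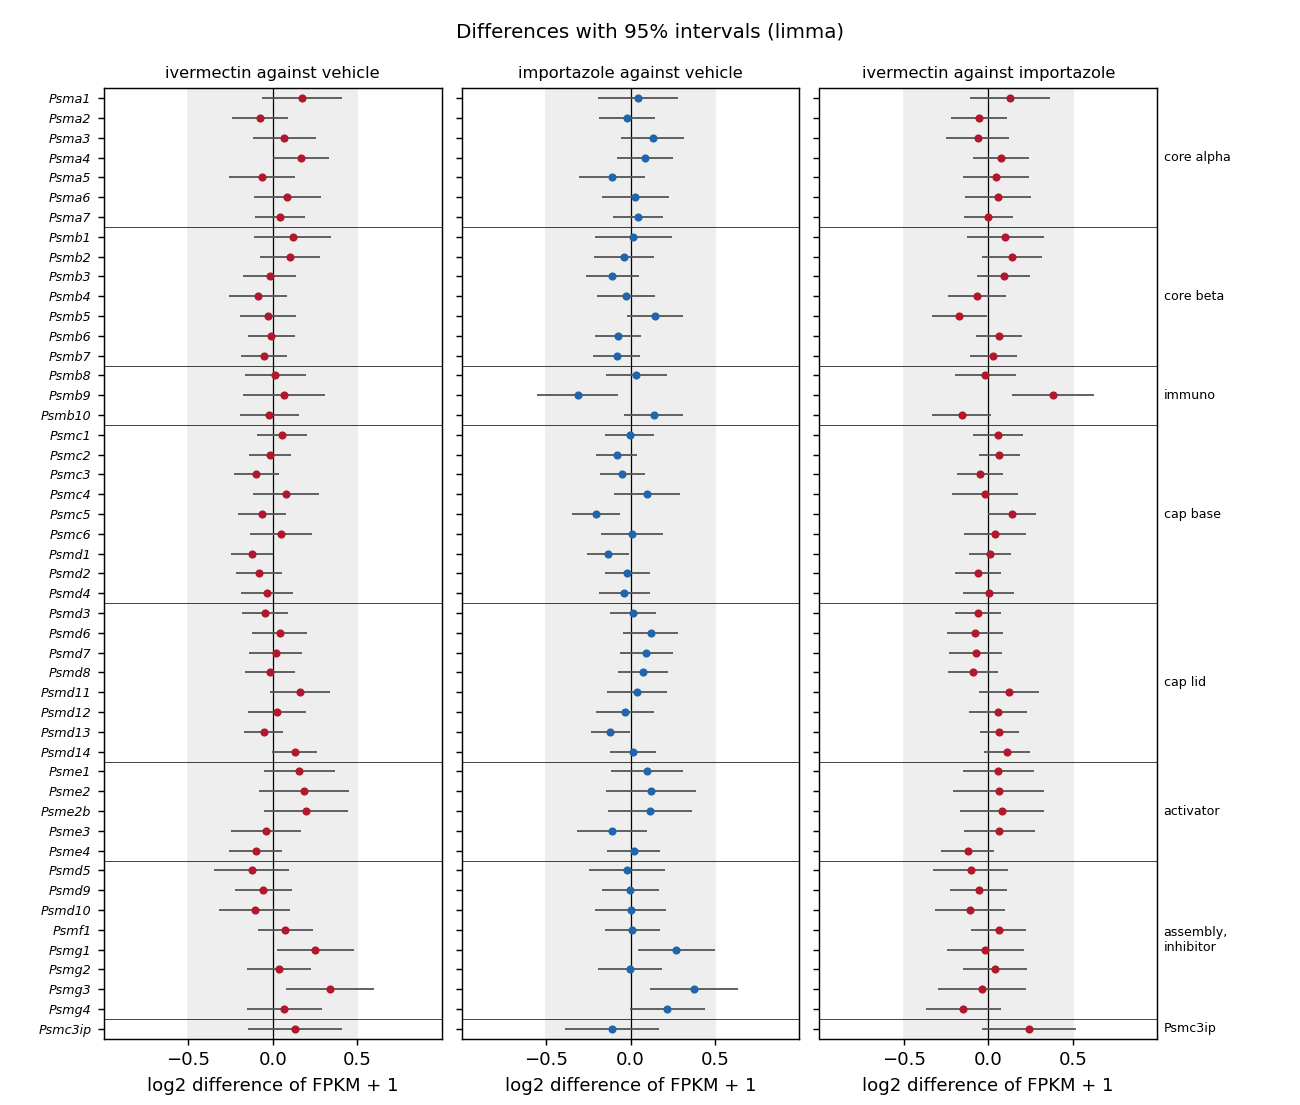
Log2 difference of FPKM + 1 for each of the 48 genes in the 3 comparisons, as points with 95% intervals from limma, grouped by role, with the band from -0.5 to 0.5 shaded. Nearly all intervals lie inside the band: 47, 46 and 46 of 48 from left to right.

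Groups that did not overlap were found for a minority of members. With ivermectin all 3 libraries lay above the 3 vehicle libraries for 3 genes (6.25% of members: Psma4, Psmd14 and Psmg1), beside 12.4% of all genes tested, and below them for 3 (6.25%: Psmd1, Psmd13 and Psme4), beside 12.2%. With importazole they lay above vehicle for 5 (10.4%: Psma3, Psmb10, Psmd7, Psmg1 and Psmg4), beside 16.5%, and below for 7 (14.6%: Psmb3, Psmb9, Psmc2, Psmc5, Psmd1, Psmd13 and Psme3), beside 7.07%. Between the compounds, ivermectin lay above importazole for 5 genes (10.4%), beside 8.04%, and below for 1 (2.08%), beside 16.1%. Both comparisons with vehicle use the same 3 vehicle libraries. Changes smaller than 0.1 log2 units made up 66.7% of members and 43.8% of all genes for ivermectin with vehicle. For importazole with vehicle they made up 64.6% and 49.1%. Members were also measured more tightly than the tested genes as a whole. In both comparisons limma's intervals reached a median of 0.172 log2 units either side of the change for members, and 0.218 for all genes. Whether small changes were commoner among members than among genes measured as tightly was not tested.

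One library stood apart among the proteasome genes. Ivermectin 3 was the highest of the 3 ivermectin libraries for 36 of the 48 genes and the highest of all 9 for 23, while ivermectin 1 was the lowest of its group for 33. Such counts were not made over all genes tested. Their median log2(FPKM + 1) had the same order, at 3.5038, 3.4877 and 3.4496 in ivermectin 3, 2 and 1. With vehicle that median ran from 3.4233 to 3.5211. The mean of log2(FPKM + 1) over members, relative to the vehicle mean, was 0.132 in ivermectin 3, 0.0057 in ivermectin 2 and -0.042 in ivermectin 1. It was 0.047, -0.0012 and -0.0035 in importazole 1, 2 and 3 and at 0.032, 0.0038 and -0.036 in vehicle 1, 2 and 3. By role, ivermectin 3 differed from the vehicle mean by 0.25 in the activators, 0.22 in the core alpha genes and 0.16 in the assembly genes, but by 0.031 in the cap base and 0.015 in the inducible catalytic genes. Ivermectin 3 is also 1 of the libraries that list Yam1 at 0, and the part of this in its values was not tested.

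**Figure D3:**
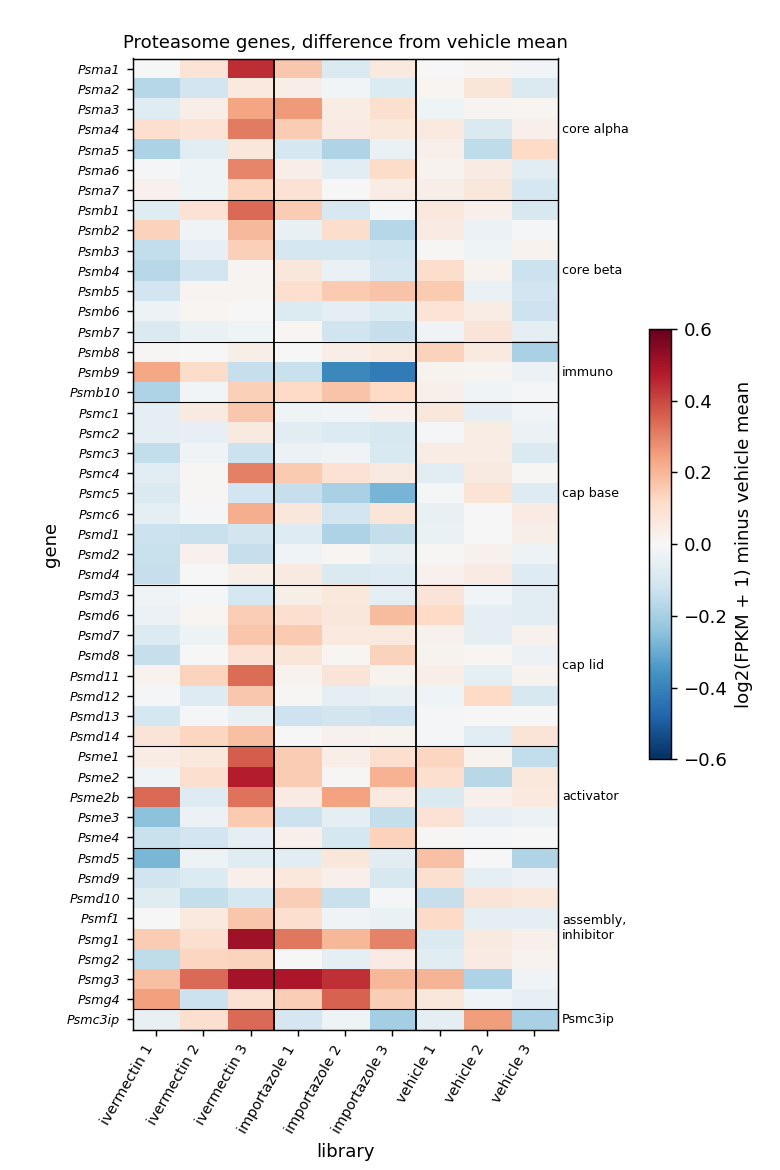
Difference of log2(FPKM + 1) from the mean of the vehicle libraries for each of the 48 genes (rows, by role) in each library (columns: ivermectin, importazole, vehicle), with red above and blue below. Ivermectin 3 is red in all 7 core alpha genes and 4 of the 5 activators, Psmg1 and Psmg3 are red in the 6 compound libraries, and Psmb9 is blue in the 3 importazole libraries.

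The core genes, which form the protease barrel, had median log2 changes of 0.018 with ivermectin and -0.0017 with importazole over 14 genes, 7 positive and 7 negative in each. Among alpha genes the largest change with ivermectin was that of Psma1, a ring subunit, at 51.1, 54.1 and 69.9 FPKM in ivermectin 1, 2 and 3, 57.3, 48.1 and 53.4 with importazole and 51.2, 51.7 and 50.5 with vehicle. Only ivermectin 3 stood well above the rest, and ivermectin and vehicle overlapped (log2 change 0.17, limma adjusted p = 0.388, and 0.039 without ivermectin 3). Psma3, another ring subunit, had the largest alpha change with importazole, at 41.6, 45.1 and 51.8 FPKM with ivermectin, 52.4, 45.2 and 46.9 with importazole and 43.0, 44.4 and 44.1 with vehicle. All 3 importazole libraries lay above vehicle, by little (log2 change 0.13, limma adjusted p = 0.496, and 0.070 without importazole 1).

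Among beta genes Psmb1, a non-catalytic ring subunit, had the largest change with ivermectin. It was at 95.8, 107 and 128 FPKM with ivermectin, 112, 94.5 and 100.4 with importazole and 106, 103 and 94.4 with vehicle. Its groups overlapped (log2 change with ivermectin 0.12, limma adjusted p = 0.56), and the change was 0.0071 without ivermectin 3. The catalytic subunit Psmb5, which cuts after hydrophobic residues, had the largest beta change with importazole. It was at 101, 111 and 111 FPKM with ivermectin, 117, 122 and 123 with importazole and 122, 106 and 101 with vehicle. Importazole lay above ivermectin in all libraries (ivermectin minus importazole -0.17, 95% interval -0.34 to -0.0048, limma adjusted p = 0.25) but overlapped vehicle (log2 change 0.14, limma adjusted p = 0.389, 0.22 without vehicle 1 and 0.086 without vehicle 3).

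The other constitutive catalytic subunits differed little between groups. Psmb6, which cuts after acidic residues, was at 188, 194 and 192 FPKM with ivermectin, 182, 185 and 181 with importazole and 203, 198 and 176 with vehicle. Psmb7, which cuts after basic residues, was at 92.7, 95.9 and 96.8 FPKM with ivermectin, 99.3, 90.8 and 89.4 with importazole and 97.1, 104 and 94.7 with vehicle. For both genes each compound's values overlapped those of vehicle. Psmb7 shares 405 annotated exon bases with Nek6 on the opposite strand, and copies named Psmb5-ps, Psmb6-ps2 and Psmb7-ps2 could share reads with the 3 genes, so their levels are uncertain to that extent.

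The immunoproteasome genes encode the inducible counterparts of these subunits: Psmb8 replaces Psmb5, Psmb9 replaces Psmb6 and Psmb10 replaces Psmb7. All 3 were expressed in HL-1 cells with no interferon among the treatments named in the labels. Psmb8 was at 30.8, 30.7 and 31.4 FPKM with ivermectin, 30.6, 31.5 and 31.9 with importazole and 33.8, 31.9 and 26.6 with vehicle. The compound libraries lay within the range of the vehicle libraries.

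Psmb10 (GRCm38 chromosome 8, 105935735 to 105938444, minus strand) was at 41.9, 47.3 and 53.0 FPKM with ivermectin, 52.1, 54.0 and 52.2 with importazole and 48.9, 47.2 and 47.5 with vehicle. The importazole libraries lay above vehicle by a small margin (log2 change 0.14, 95% interval -0.036 to 0.31, limma adjusted p = 0.434).

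Psmb9 (chromosome 17, 34181987 to 34187764, minus strand) was the lowest of the 3 and had the widest range over the 9 libraries of the 48 genes, though its vehicle libraries were close together. It was at 8.71, 7.93 and 6.53 FPKM with ivermectin, 6.54, 5.32 and 5.18 with importazole and 7.38, 7.36 and 7.08 with vehicle. All importazole libraries lay below all vehicle libraries, while the ivermectin libraries lay on both sides of them. Its log2 change was -0.31 with importazole (SE 0.11, 95% interval -0.56 to -0.072, limma adjusted p = 0.187) and 0.069 with ivermectin (limma adjusted p = 0.766). The difference between the compounds was 0.38 (SE 0.11, 95% interval 0.14 to 0.62, limma adjusted p = 0.0878), the smallest adjusted p of any member in the 3 comparisons. Without ivermectin 3 this difference was 0.485 and passed (limma adjusted p = 0.0399). Over all alternatives the adjusted p ran from 0.0399 to 0.255.

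As a share of its constitutive counterpart's FPKM, Psmb9 stood at 4.64%, 4.09% and 3.40% of Psmb6 with ivermectin, 3.60%, 2.88% and 2.86% with importazole and 3.63%, 3.72% and 4.02% with vehicle. Psmb8 stood at 27.7% to 30.5% of Psmb5 with ivermectin, 25.8% to 26.1% with importazole and 26.4% to 30.0% with vehicle. Psmb10 stood at 45.2% to 54.7% of Psmb7 with ivermectin, 52.4% to 59.4% with importazole and 45.3% to 50.4% with vehicle. With importazole the share was thus lower than in every vehicle library for Psmb8 and Psmb9 and higher for Psmb10. The nearest libraries for Psmb9 were at 3.60% and 3.63%. Psmb8 itself averaged 31.4 FPKM with importazole and 30.8 with vehicle, and its counterpart Psmb5 averaged 121 and 110. Ratios of other gene pairs were not worked out for comparison. The ratios are given as a description, with no test of their own. Of the summed FPKM of the 6 catalytic genes, the inducible ones held 17.6% to 18.5% with ivermectin, 18.3% to 18.6% with importazole and 17.5% to 17.9% with vehicle.

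**Figure D4:**
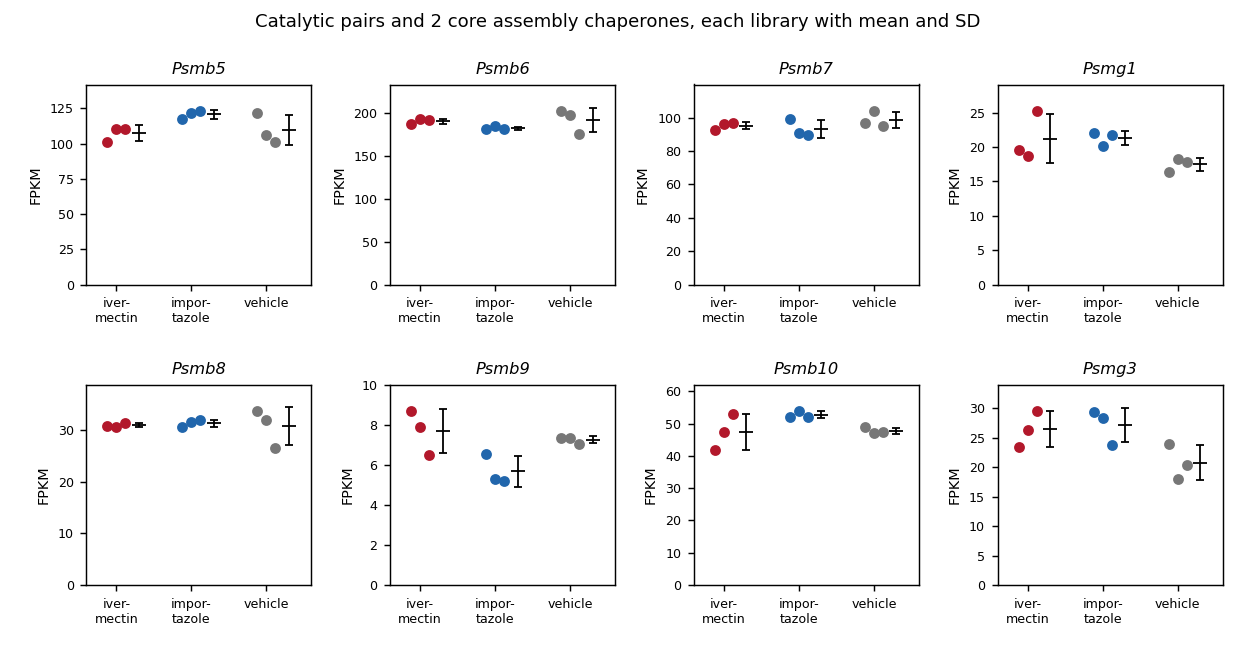
FPKM (axes start at 0) of the constitutive catalytic genes Psmb5, Psmb6 and Psmb7 (top), their inducible counterparts Psmb8, Psmb9 and Psmb10 (bottom) and the core chaperones Psmg1 and Psmg3 (right), with 1 point per library and the mean ± SD of 3 libraries per group. Psmb9 is lower in the importazole libraries (5.18 to 6.54) than in the vehicle libraries (7.08 to 7.38), and Psmg1 is higher in all 6 compound libraries (18.8 to 25.3) than in vehicle (16.4 to 18.2).

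Psmb9 lies head to head with Tap1, a subunit of the transporter that carries proteasome peptides to MHC class I molecules. In RefSeq on GRCm38.p6 the start of Tap1 lies 226 bases from that of Psmb9 on the opposite strand. By that annotation the region between them lies upstream of both. The GENCODE span of Psmb9 differs: it extends to 34187764, past the RefSeq starts of Psmb9 (34187330) and Tap1 (34187556), and so covers this region. Tap1 did not share the low importazole values: it was at 14.8, 14.4 and 14.7 FPKM with ivermectin, 14.2, 14.4 and 14.0 with importazole and 13.3, 12.7 and 12.5 with vehicle. Its log2 changes were 0.18 and 0.13 (limma adjusted p = 0.143 and 0.333). The annotated exons of the pair share 212 bases on opposite strands, and the use of strand in the authors' counting is not given, so reads there cannot be assigned. The promoters are shown for Psmb9, whose values differed most between compounds, for its constitutive counterpart Psmb6, and for Psmg3, which had the largest change from vehicle. Each runs 5′ to 3′ on the gene's own strand from 250 bases before to 50 bases after the RefSeq start, at chr17:34187281-34187580 (minus), chr11:70525107-70525406 (plus) and chr5:139826845-139827144 (minus). Capitals mark matches to the motifs named below.
Psmb9: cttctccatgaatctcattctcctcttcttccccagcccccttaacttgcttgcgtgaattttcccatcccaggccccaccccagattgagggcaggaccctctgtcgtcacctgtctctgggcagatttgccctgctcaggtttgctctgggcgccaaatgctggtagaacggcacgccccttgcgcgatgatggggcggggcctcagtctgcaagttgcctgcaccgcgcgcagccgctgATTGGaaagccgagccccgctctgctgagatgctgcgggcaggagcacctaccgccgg
Psmb6: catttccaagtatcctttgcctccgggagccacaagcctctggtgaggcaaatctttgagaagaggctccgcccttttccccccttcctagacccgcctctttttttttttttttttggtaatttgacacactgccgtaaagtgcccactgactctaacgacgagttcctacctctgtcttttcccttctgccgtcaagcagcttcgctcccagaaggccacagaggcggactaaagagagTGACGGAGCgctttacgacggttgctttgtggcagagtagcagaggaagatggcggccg
Psmg3: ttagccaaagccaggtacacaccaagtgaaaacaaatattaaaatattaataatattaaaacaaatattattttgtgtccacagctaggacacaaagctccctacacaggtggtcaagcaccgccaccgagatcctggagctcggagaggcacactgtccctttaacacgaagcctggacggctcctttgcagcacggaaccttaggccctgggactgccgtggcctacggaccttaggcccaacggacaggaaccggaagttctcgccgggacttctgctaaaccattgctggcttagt
The 4 motifs were searched on both strands in RefSeq promoter windows of 300 bases, which were at hand for 41 of the 48 members and for 27025 genes in all. The motif TGACNNNGC, the antioxidant response element that NFE2L1 and NFE2L2 bind with small MAF partners, was in windows of 6 members (14.6%: Psmb5, Psmb6, Psmc6, Psmd9, Psmd12 and Psme4) and of 14.0% of all genes. An interferon regulatory factor element, the letters GAAA repeated after a gap of 2 bases, was in 5 members (12.2%: Psmb3, Psmd4, Psmd9, Psme1 and Psmg4) and 4.0% of all genes. CCAAT, the NF-Y box, was in 14 members (34.1%) and 41.1% of all genes, and TGATGNAA, the composite element of ATF4, was in 1 (2.4%: Psmd13) and 4.5%. The capitals in Psmb6 are a TGACNNNGC match and those in Psmb9 a CCAAT box on the other strand, and the Psmg3 window held none of the 4. A match of letters is not evidence of binding, and matches did not overlap in the sequences shown.

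The cap genes had median changes of -0.016 with ivermectin and -0.0053 with importazole over 17 genes, 8 positive and 9 negative in each. In the base, Psmc5, an ATPase of the unfolding ring (chromosome 11, 106256154 to 106263120, plus strand), had the largest change with importazole. It was at 111, 118 and 109 FPKM with ivermectin, 107, 103 and 96.7 with importazole and 117, 125 and 112 with vehicle. The importazole libraries lay below both other groups (log2 change from vehicle -0.21, 95% interval -0.35 to -0.061, limma adjusted p = 0.148).

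Psmd1, the base scaffold with the largest ivermectin change in its class, was at 43.4, 43.3 and 43.9 FPKM with ivermectin, 45.1, 41.7 and 42.9 with importazole and 46.2, 47.6 and 48.8 with vehicle. All 6 compound libraries lay below the 3 vehicle libraries. The log2 change was -0.12 with ivermectin (95% interval -0.25 to 0.0015, limma adjusted p = 0.247) and -0.14 with importazole (95% interval -0.26 to -0.0098, limma adjusted p = 0.283). The lid subunit Psmd13, chosen after its values were seen, was at 69.6, 74.4 and 72.8 FPKM with ivermectin, 68.8, 69.6 and 68.7 with importazole and 74.6, 75.2 and 75.3 with vehicle. Both compounds lay below vehicle, which hardly varied (log2 change with importazole -0.12, limma adjusted p = 0.305). Psmd13 shares 342 exon bases with Sirt3 on the opposite strand.

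In the lid, Psmd11, a subunit needed to hold cap and core together, had the largest change with ivermectin. It was at 35.03, 38.0 and 43.8 FPKM with ivermectin, 35.02, 36.5 and 35.1 with importazole and 35.5, 33.1 and 35.1 with vehicle. Ivermectin 2 and 3 and importazole 2 lay above all vehicle libraries (log2 change with ivermectin 0.16, limma adjusted p = 0.281, and 0.076 without ivermectin 3). Psmd6, a scaffold subunit of the lid, had the largest lid change with importazole, at 63.1, 65.1 and 71.8 FPKM with ivermectin, 69.3, 67.8 and 74.0 with importazole and 70.4, 62.0 and 61.9 with vehicle. Its groups overlapped (log2 change 0.12, limma adjusted p = 0.472).

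The activator genes encode Psme1 and Psme2, interferon-inducible partners in a ring that can replace the cap, Psme3, its nuclear relative, and Psme4, a large single-chain activator. Their median change was 0.157 with ivermectin and 0.098 with importazole, with 0 of 5 past limma's test in either. The ivermectin value rests on ivermectin 3, where the median over the 5 genes differed from the vehicle mean by 0.33, against -0.022 in ivermectin 1 and -0.036 in ivermectin 2. Psme2 was at 51.2, 55.7 and 72.5 FPKM with ivermectin, 57.9, 52.2 and 60.2 with importazole and 55.8, 46.3 and 54.4 with vehicle. Psme2b, an intronless copy, was at 16.6, 12.2 and 16.5 FPKM with ivermectin, 13.4, 15.4 and 13.5 with importazole and 12.1, 13.2 and 13.5 with vehicle. Each overlapped vehicle under both compounds, with ivermectin 3 highest for Psme2 and ivermectin 1 highest for Psme2b. The log2 change was 0.12 for Psme2 with importazole (limma adjusted p = 0.68), and 0.040 without vehicle 2. It was 0.20 for Psme2b with ivermectin (limma adjusted p = 0.355), and 0.12 without ivermectin 1, 0.33 without ivermectin 2 and 0.13 without ivermectin 3. The copies could share reads, so the split between them is uncertain.

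The assembly genes held the largest changes from vehicle. Psmg1 to Psmg4 are chaperones that pair up to build the alpha ring, Psmd5, Psmd9 and Psmd10 are chaperones of the cap base, and Psmf1 is an inhibitor of the core in vitro. Psmg3 (chromosome 5, 139823592 to 139826885, minus strand) was at 23.5, 26.4 and 29.6 FPKM with ivermectin, 29.3, 28.4 and 23.9 with importazole and 24.0, 18.05 and 20.4 with vehicle. Both compounds averaged above vehicle, at 26.5 ± 3.03 and 27.2 ± 2.92 FPKM against 20.8 ± 3.0 (SD, n = 3), but vehicle 1 lay above the lowest library of each. The log2 change was 0.34 with ivermectin (SE 0.12, 95% interval 0.078 to 0.60, limma adjusted p = 0.137, and 0.17 without both ivermectin 3 and vehicle 2) and 0.37 with importazole (SE 0.12, 95% interval 0.11 to 0.63, limma adjusted p = 0.145).

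Psmg1 (chromosome 16, 95979933 to 95990960, minus strand), another of these chaperones, was chosen after its values were seen. It was at 19.5, 18.8 and 25.3 FPKM with ivermectin, 22.02, 20.2 and 21.7 with importazole and 16.4, 18.2 and 17.9 with vehicle. All 6 compound libraries lay above all vehicle libraries. The log2 change was 0.25 with ivermectin (95% interval 0.025 to 0.48, limma adjusted p = 0.198, and 0.12 without ivermectin 3) and 0.27 with importazole (95% interval 0.044 to 0.50, limma adjusted p = 0.23). The class median was 0.054 with ivermectin, where the other 6 genes ran from -0.13 to 0.074. It was 0.0065 with importazole, where they ran from -0.020 to 0.22, the highest being the chaperone Psmg4.

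Genes that work with the proteasome but carry other names gave a like picture. Of 9 tested proteasome-associated genes (among them Pomp, the maturation factor of the core, the ubiquitin receptor Adrm1 and the deubiquitinases Usp14 and Uchl5), 0 passed limma's test in any of the 3 comparisons. The same held for 11 genes of ubiquitin, its activating enzymes and the p97 unfoldase and for 6 shuttle receptors, and their median log2 changes from vehicle ran from -0.0016 to 0.077 over these lists. Pomp was at 83.7 ± 2.15 FPKM with ivermectin, 92.9 ± 2.20 with importazole and 90.1 ± 4.39 with vehicle (SD, n = 3).

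Of 14 regulators of proteasome gene transcription, 1 fell with ivermectin and 0 passed with importazole. Nfe2l1, the gene of the factor that restores proteasome subunits, was at 57.6, 63.7 and 51.1 FPKM with ivermectin, 61.3, 59.1 and 53.1 with importazole and 47.7, 48.4 and 46.1 with vehicle. All 6 compound libraries lay above vehicle, without passing (log2 changes 0.27 and 0.28, limma adjusted p = 0.108 and 0.131). The gene that fell was Maff, a small MAF partner of such factors, at 0.540, 1.40 and 1.10 FPKM with ivermectin, 2.72, 2.98 and 2.99 with importazole and 2.30, 2.13 and 1.75 with vehicle. Its log2 change was -0.62 with ivermectin (limma adjusted p = 0.046), a call that ended when any 1 library other than ivermectin 2 was left out. It also ended without both libraries that lack Yam1, with a pseudocount of 0.1 or 0.5, with no filter on low values and in a fit to the 6 libraries compared (limma adjusted p up to 0.18). Its difference between the compounds was -0.98 (limma adjusted p = 0.00528, at most 0.0306 over all alternatives).

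Of 11 tested genes of interferon-inducible antigen processing, 1 rose with importazole and 0 passed with ivermectin. H2-K1, an MHC class I heavy chain, was at 254, 243 and 258 FPKM with ivermectin, 278, 305 and 295 with importazole and 244, 236 and 232 with vehicle. Its log2 change with importazole was 0.30 (limma adjusted p = 0.0213), and it no longer passed when vehicle 2, vehicle 3, importazole 2, importazole 3 or both libraries without Yam1 were left out, with no filter on low values or with quantile normalization (limma adjusted p up to 0.11). Tapbp, which loads peptides onto these molecules, was lower with ivermectin than with importazole (72.5 ± 4.11 and 96.2 ± 10.1 FPKM, SD, n = 3 each, log2 difference -0.40, limma adjusted p = 0.0306). It no longer passed when vehicle 2, any 1 ivermectin library, importazole 2, importazole 3 or both libraries without Yam1 were left out, with no filter on low values, or in a fit to the 6 libraries compared (limma adjusted p up to 0.12). The inducible subunits Psmb8, Psmb9 and Psmb10, of the same interferon program, passed in none of the comparisons fitted to all 9 libraries.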

How the data were processed

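Transcript levels were measured by RNA sequencing in 9 libraries of HL-1 cells, 3 per group, grouped by the labels. Per the file headers, the authors deposited FPKM per gene symbol. Cufflinks, STAR, Bowtie and Bowtie2 and the builds GRCm38 and mm10 are listed, without roles, in the submitters' processing notes. Their versions, the annotation and the use of strand were not given in the sources used here. Each value is relative to all mapped fragments, so a missing abundant transcript can raise the others. Read numbers could not be recovered. The commonest ratio of low values in vehicle 1 to those in another library ran from 0.75 to 1.24, which would be the depth relative to vehicle 1 if the 90 to 120 genes at that ratio held equal reads.

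Each file held 25230 lines for 25175 symbols, and repeated lines were added up for 48 symbols, 0 of them members. The tests covered 11337 genes that reached 1 FPKM in 3 or more libraries. Values were analysed as log2(FPKM + 1), which understates changes of low genes, with limma 3.58.1 in R 4.3.3 (group as the only term, all 9 libraries, intensity trend, robust moderation). P-values are two-sided and adjusted by Benjamini-Hochberg over all 11337 genes, with calls under 0.05. Intervals are limma's 95% intervals for single genes, with no adjustment. The fit was tested on simulated data. Locations came from GENCODE M21 on GRCm38 and promoters from RefSeq on GRCm38.p6. Figures used Python 3.11.15 and matplotlib 3.10.9.

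The members, lists and tests were chosen with earlier results of these data known. Values in every library are given for members called in any comparison, the 6 catalytic subunits, and the member with the largest absolute change from vehicle in each role class for each compound. Other genes were named by count, or by their place among the smallest p-values of their list. Alternatives to these choices were a pseudocount of 0.1 or 0.5, a filter at 5 FPKM or none, 3 other scalings (quantile, median-of-ratios and rescaling without Yam1), fits to 6 libraries, the replicate number as a block, and omission of each library in turn or of both that have Yam1 at 0. A further leukocyte marker is not reported here.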

Additional observations from a re-analysis of the deposited data

How the results depend on the processing

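In each of the 3 comparisons 0 proteasome genes passed in either direction under every alternative run, with 1 exception. Without ivermectin 3, 1 gene, Psmb9, was called higher with ivermectin than with importazole (log2 difference 0.485, limma adjusted p = 0.0399). Leaving out each library in turn, the count of genes called higher in that comparison thus ran from 0 to 1. The scalings moved the median between the compounds to at most 0.091. The median log2 difference of proteasome genes between ivermectin and importazole was 0.035, and -0.033 with ivermectin 3 and vehicle 2, where Yam1 is at 0, both left out. Leaving out single libraries it ran from -0.033 (without ivermectin 3) to 0.054, and that of ivermectin with vehicle ran from -0.023 to 0.049. The other medians moved by less than the spread between replicates (SD 0.064). The change of Psmb9 with ivermectin ran from -0.013 (without ivermectin 1) to 0.171 (without ivermectin 3) when single libraries were left out, and the cause was not tested. With the replicate number as a block the count was 0 in each comparison, and Maff (ivermectin with vehicle), H2-K1 and Tapbp had limma adjusted p of 0.0724, 0.0681 and 0.0736. Same-numbered libraries showed no clear tendency to deviate together (correlations of deviations from group means -0.210 to 0.145, and 7 of 18 best with their own number). With 3 libraries per group this cannot tell whether they share more than a number. The unknown depth limits what can be said of genes near 1 FPKM such as Maff, which has no value under the filter at 5 FPKM.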

Other observations

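Symbols with a hyphen, which mark copies of beta subunit genes, were left out of the 48 and had low values. Psmb6-ps2 was at 7.93, 8.46 and 5.77 FPKM with ivermectin, 7.83, 8.74 and 8.70 with importazole and 6.11, 6.79 and 9.24 with vehicle. The groups overlapped, and the lowest library was ivermectin 3, where Psmb6 itself was at 192 FPKM. Psmb5-ps stayed at or below 0.516 FPKM and Psmb7-ps2 ran from 1.62 to 3.74 FPKM over the 9 libraries. Psmc3ip, the recombination factor that shares the Psm name, was at 12.3, 13.7 and 16.3 FPKM with ivermectin, 11.8, 12.5 and 10.9 with importazole and 12.2, 15.3 and 10.99 with vehicle. Its 2 highest libraries, ivermectin 3 and vehicle 2, were those that list Yam1 at 0, and the part of this in its values was not tested. It shares 385 exon bases with Mlx on the opposite strand.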
